A study of Rattus norvegicus with 6 samples.

Results

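Dentate granule cell genes were followed in the hippocampus of male rats after removal of the testes. The 6 genes, chosen by name as markers of the granule neurons of the dentate gyrus, were Prox1, Pdyn, Penk, Calb1, Dsp and C1ql2. Of these, 5 were named by a RefSeq accession on the array, each through 1 probe, so 5 of the 30367 probes that are not controls carry the results, and no probe was named Dsp here. Hippocampal RNA came from 3 orchidectomized and 3 sham-operated male Wistar rats. All animals were operated on at 2 months of age and their tissue was taken 2 weeks later under ketamine and medetomidine, and no group received a hormone replacement that the labels name. The samples were hippocampal tissue with no sorting of cells named in the labels, so a granule cell transcript was measured in a mixture of cell types, and fewer cells of a type cannot be told apart from less RNA per cell. Each RNA sample was read on its own 1-colour Agilent array, and between 23785 and 26173 probes were well above background on each.

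Granule cells are the principal neurons of the dentate gyrus, which receive input from the entorhinal cortex and send mossy fibers to the hilus and to the CA3 field. They are known for opioid peptides stored in the mossy fiber terminals, for a high content of the calcium buffer calbindin, and for being formed from progenitors into adult life. Prox1 encodes a homeodomain transcription factor that is needed for granule cell identity. Pdyn encodes prodynorphin, the precursor of the dynorphins, which act mainly on the kappa opioid receptor, and Penk encodes proenkephalin, the precursor of the enkephalins, which act mainly on the delta and mu opioid receptors. Calb1 encodes calbindin, and C1ql2 encodes a secreted C1q-like protein of the mossy fiber synapse. Dsp encodes desmoplakin, a desmosome protein that also marks these neurons. Some of the genes are also active elsewhere, as Penk and Pdyn are in the striatum and Penk and Calb1 are in interneurons.

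The array labelled sham 2 stood apart from the other 5, and it is therefore shown with every result. It correlated with the others at 0.803 to 0.813 across tested probes, whereas pairs among the other arrays lay at 0.987 to 0.996. The 12 choroid plexus genes listed for comparison had a mean log2 value of 4.47 on it, against -4.94 to -3.34 on the other 5. The 14 pyramidal neuron genes with a probe had -3.41 there, against -0.27 to 0.12 on the others. Of these 14, 9 were more than 1 log2 unit below the median of the other 5 arrays on sham 2, and 3 were more than 1 unit above it. Neurod6, a transcription factor gene of pyramidal neurons with the largest drop of that list, was 2.18 to 2.78 on the 5 arrays and -6.81 on sham 2. The label of sham 2 gives hippocampus as its tissue, as for the other 5. Each log2 value is a probe's intensity after the 75th percentile of its own array was subtracted, a difference is orchidectomized minus sham, and a probe counted as called when its Benjamini-Hochberg adjusted p in limma was under 0.05.

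The 250 bases before the annotated start of Pdyn are shown because Pdyn is the member with the largest drop on sham 2 and because its promoter is one of 3 of the 6 genes held in the RefSeq promoter table used here (GRCr8, minus strand, chr3:137366504-137366753). The capitals mark the letters TATAAA, the first of which lies 13 bases before the start.
Pdyn: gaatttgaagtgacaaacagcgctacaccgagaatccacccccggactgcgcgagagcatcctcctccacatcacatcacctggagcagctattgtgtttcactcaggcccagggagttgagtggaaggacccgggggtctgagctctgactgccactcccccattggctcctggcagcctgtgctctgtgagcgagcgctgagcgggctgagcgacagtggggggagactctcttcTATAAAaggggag
The TATAAA letters, on either strand, were in 12.9% of 33469 rat promoter windows of this length. The full androgen receptor element, in which a pair of AGAACA hexamers face each other across 3 bases, was in 4 of them, and a single AGAACA, on either strand and counted also within the full element, was in 17.5%. The cyclic AMP response element TGACGTCA was in 1.59%. None of the last 3 sets of letters was found in the windows of Pdyn, C1ql2 or Dsp, which says only that these letters are not in these windows.

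With all 6 arrays, the 5 granule cell genes had higher means in the orchidectomized group, by 1.33 to 2.72 on the log2 scale, and none was called. Without sham 2 the 5 differences lay between -0.16 and 0.27, 2 of them above 0 and 3 below, and none was called. In both comparisons limma called 0 probes in all, which is 0% of 24634 probes with 6 arrays and 0% of 25212 probes without sham 2. An unadjusted p under 0.05 was found for 0 of the 5 genes in either comparison, against 0.731% of all probes with 6 arrays (0.0893% higher and 0.641% lower) and 2.71% without sham 2 (0.448% higher and 2.26% lower). With 6 arrays the groups overlapped for all 5 genes, while 8.0% of all probes had groups that did not overlap, 3.26% higher and 4.74% lower. Without sham 2 that share was 16.3%, with 6.24% higher and 10% lower, and 1 of the 5 genes, C1ql2, was among the lower ones. The 5 of 5 genes above 0 with 6 arrays stand beside 48.4% of all probes. The median difference of the 5 genes was 1.83 with 6 arrays, beside -0.02 for all probes, and -0.03 without sham 2, beside -0.02 for all probes.

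**Figure D1:**
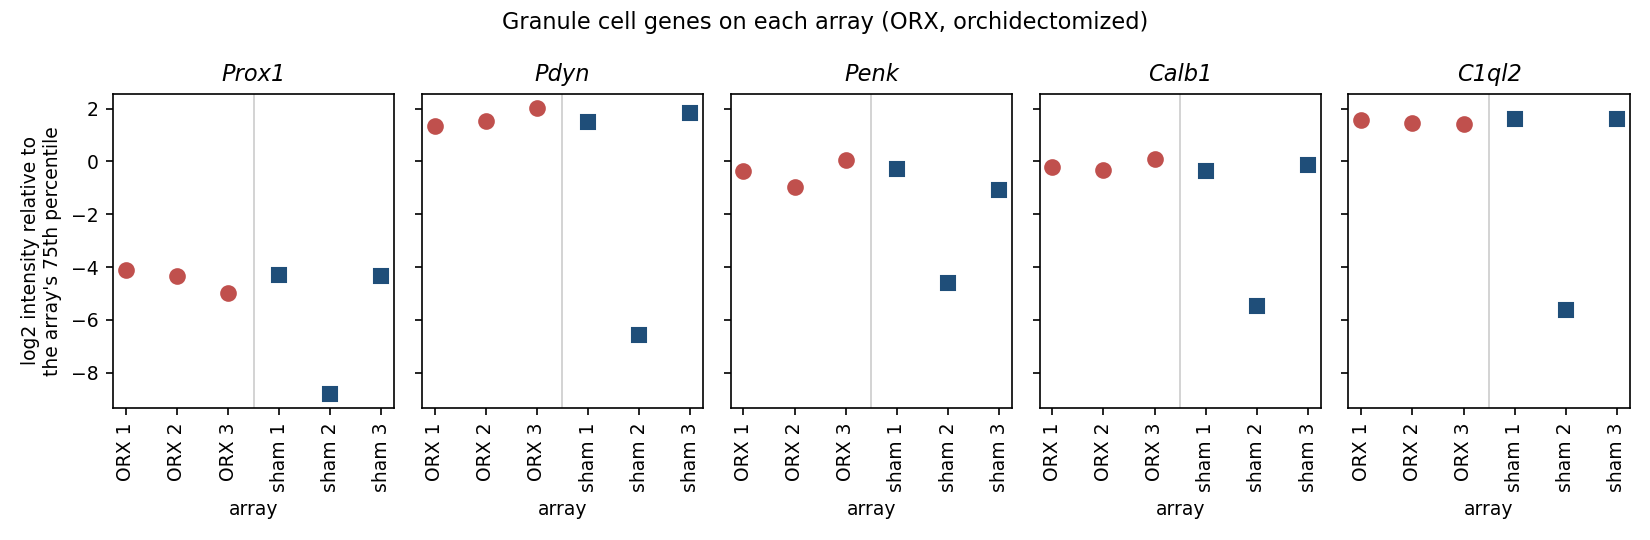
Log2 intensity relative to the array's 75th percentile (y axis) of the 5 granule cell genes on each of 6 arrays (x axis), with orchidectomized arrays as red circles and sham arrays as blue squares. In every panel sham 2 is the lowest point, at -4.23 to -8.13 relative to the other 5 arrays (median); the panels use different probes, so levels are not compared between genes.

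Prox1 was measured by a dim probe. Its log2 values were -4.11, -4.36 and -4.99 on orchidectomized 1 to 3, against -4.31, -8.79 and -4.35 on sham 1 to 3. The 2 other sham arrays lay within the range of the orchidectomized arrays, and the low end of that range was orchidectomized 3 alone. Its intensity was 35.2 where the other 4 arrays apart from sham 2 had 89.3 to 126. These intensities are not scaled for the brightness of the array, as the log2 values are. On sham 2 the probe was not well above background, and the mean of the other 5 arrays was at least 8.55-fold brighter. With 6 arrays, Prox1 averaged -4.49 ± 0.45 in the orchidectomized and -5.82 ± 2.58 in the sham group (SD, n = 3 each), which differ by 1.33 (SE 1.28; adjusted p 0.775 in limma). Without sham 2 the sham mean was -4.33 ± 0.03 (SD, n = 2), which leaves -0.16 between the groups (SE 0.27, 95% interval -0.83 to 0.52; adjusted p 0.989 in limma). Leaving out orchidectomized 3 as well turned the difference to 0.094. Within the slide that held both groups, orchidectomized 3 minus sham 1 was -0.68, and within the first scan day, the 3 orchidectomized arrays minus sham 1 gave -0.18.

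Pdyn, the dynorphin precursor gene, had 1.33, 1.55 and 2.03 on orchidectomized 1 to 3, against 1.51, -6.59 and 1.83 on sham 1 to 3. Sham 1 and sham 3 fell between the lowest and the highest orchidectomized array. On sham 2 the probe was still well above background, at 19.2 unscaled intensity units where the other arrays had 4472 to 9140. After scaling it was 301-fold dimmer than the mean of those 5. The 6-array difference was 2.72 (SE 2.33; adjusted p 0.775 in limma), from means of 1.63 ± 0.36 and -1.08 ± 4.77 (SD, n = 3 each) in the orchidectomized and sham groups. Without sham 2 the sham mean was 1.67 ± 0.23 (SD, n = 2), which leaves -0.034 between the groups (SE 0.24, 95% interval -0.64 to 0.57; adjusted p 0.992 in limma). That interval spans 0.644-fold to 1.48-fold, and 90.2% of the tested probes had a smaller p. The sign of this small difference turned when orchidectomized 1 was left out (0.12) and when orchidectomized 2 was left out (0.010). It was 0.52 within the shared slide and 0.13 within the first scan day, both against sham 1 alone.

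Penk, the enkephalin precursor gene, was the most variable of the 5 over the arrays other than sham 2. It had -0.38, -0.95 and 0.07 on orchidectomized 1 to 3, against -0.30, -4.60 and -1.08 on sham 1 to 3. The groups overlapped, with the lowest of the 5 arrays in the sham group and the highest in the orchidectomized group. The SD over the 5 arrays was 0.48. The probe is spotted 10 times on each array, with an SD of 0.031 to 0.083 over the spots of an array, which covers spot noise only. On sham 2 it was 16.9-fold dimmer than the mean of the other 5. The 6-array difference was 1.57 (SE 1.16; adjusted p 0.775 in limma), from -0.42 ± 0.51 in the orchidectomized and -1.99 ± 2.29 in the sham group (SD, n = 3 each). Without sham 2 the sham mean was -0.69 ± 0.55 (SD, n = 2), which leaves 0.27 between the groups (SE 0.37, 95% interval -0.64 to 1.18; adjusted p 0.989 in limma). It was 0.37 within the shared slide, -0.12 within the first scan day, where the 3 orchidectomized arrays are set against sham 1, while the 3 orchidectomized arrays minus sham 3 gave 0.65. The difference without orchidectomized 3 was 0.023.

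Calb1, the calbindin gene, had -0.21, -0.34 and 0.08 on orchidectomized 1 to 3, against -0.35, -5.49 and -0.12 on sham 1 to 3. Apart from sham 2, the arrays lay within 0.43 log2 units, and the groups overlapped. On sham 2 it was 39.4-fold dimmer than the mean of the other 5. The 6-array difference was 1.83 (SE 1.49; adjusted p 0.775 in limma). Without sham 2 the means were -0.16 ± 0.21 (SD, n = 3) in the orchidectomized and -0.24 ± 0.16 (SD, n = 2) in the sham group, which differ by 0.081 (SE 0.18, 95% interval -0.36 to 0.52; adjusted p 0.989 in limma). It was 0.43 within the shared slide, 0.20 within the first scan day, -0.036 when orchidectomized 3 was left out and -0.036 when sham 1 was left out.

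C1ql2, the mossy fiber synapse gene, varied least. It had 1.55, 1.47 and 1.41 on orchidectomized 1 to 3, against 1.61, -5.63 and 1.61 on sham 1 to 3. Without sham 2 every orchidectomized array lay below both sham arrays, as did 10% of all tested probes, and C1ql2 was the 1 of 5 genes to do so. On sham 2 it was 143-fold dimmer than the mean of the other 5. The 6-array difference was 2.28 (SE 2.04; adjusted p 0.775 in limma). Without sham 2 the means were 1.48 ± 0.07 (SD, n = 3) in the orchidectomized and 1.61 ± 0.01 (SD, n = 2) in the sham group, which differ by -0.14 (SE 0.12, 95% interval -0.44 to 0.17; adjusted p 0.989 in limma). The interval spans 0.736-fold to 1.13-fold, the narrowest of the 5 genes. The difference was -0.20 within the shared slide and -0.13 within the first scan day, each against sham 1 alone, and 27.5% of the tested probes had a smaller p.

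**Figure D2:**
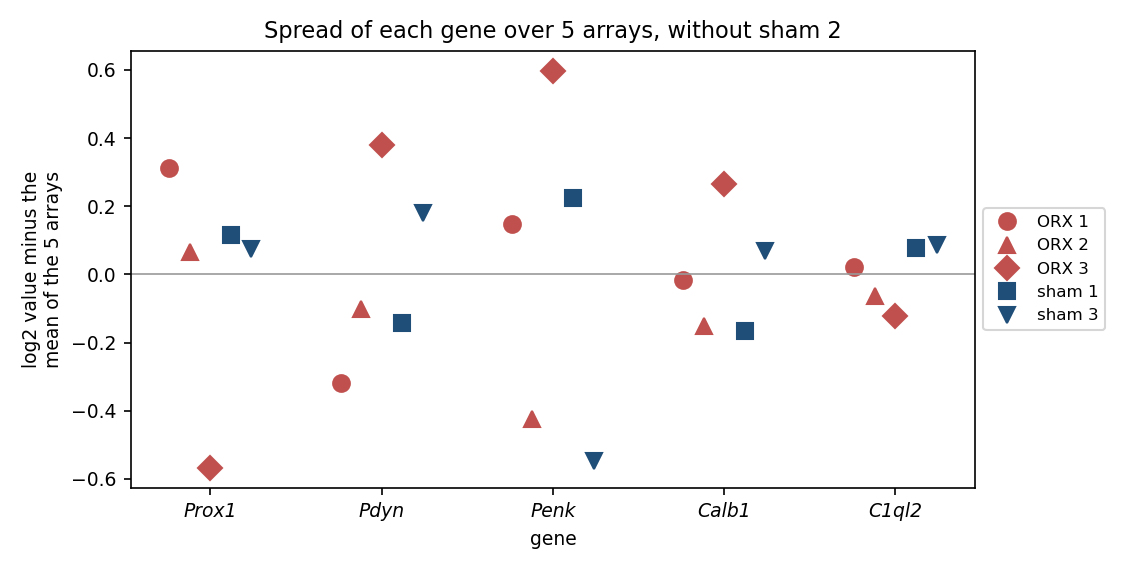
Log2 value minus the gene's mean over 5 arrays (y axis) for the 5 granule cell genes (x axis), without sham 2; red symbols are orchidectomized 1 to 3 and blue symbols sham 1 and sham 3. Orchidectomized 3, the red diamond, is the highest array for Pdyn, Penk and Calb1 and the lowest for Prox1 and C1ql2.

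The 5 genes differed in which of these arrays were high and which were low. Orchidectomized 3 was the highest of the 5 arrays for Pdyn, Penk and Calb1, at 0.38, 0.60 and 0.27 above each gene's 5-array mean. It was the lowest for Prox1 and C1ql2, at -0.57 and -0.12. That array also had the most spots with an outlier flag, 672 where the other arrays had 235 to 313, and the fewest saturated probes, 190 where the others had 336 to 557. The part of these measures in the values of the 5 genes was not tested.

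By root mean square distance over the 6 arrays, after each probe's mean over the 5 arrays was subtracted, the named genes with the profile nearest to Pdyn were Lamp5, Grik1 and Sorcs3, at 0.13 to 0.14 log2 units. Those nearest to Penk were Sparcl1, Sema3a and S100a3, at 0.15 to 0.19, and those nearest to Calb1 were Myo16, Dgkg and Nectin4, at 0.071 to 0.081. Those nearest to C1ql2 were Brinp2 and Jakmip2, at 0.064 and 0.065. Each was compared with 15151 genes, and the depth of the drop on sham 2 weighs most in these distances. Prox1 was not well above background on sham 2, so no neighbours are given for it. Among the other 4 genes the nearest pair was Pdyn and C1ql2, at 0.51, and the farthest was Pdyn and Penk, at 1.75.

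**Figure D3:**
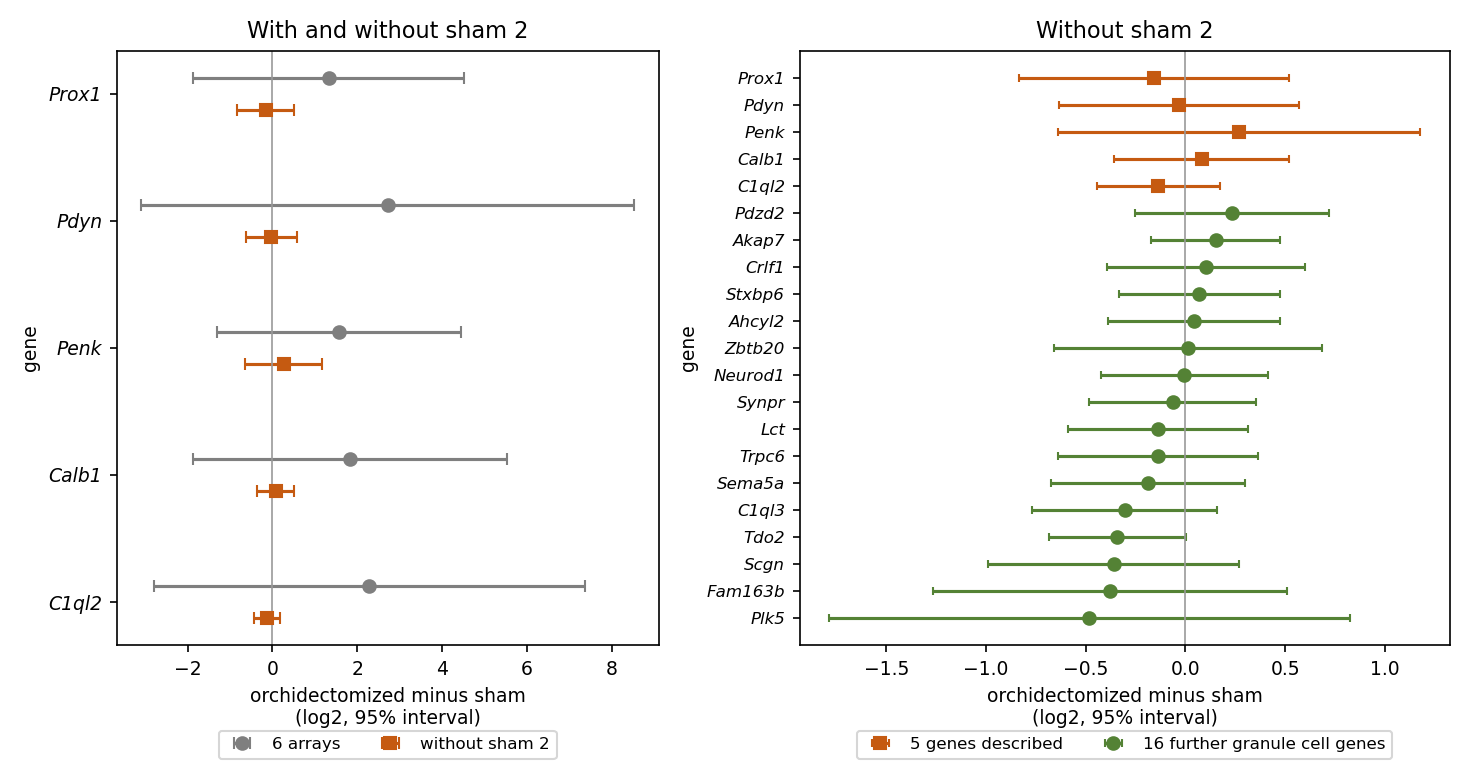
Difference orchidectomized minus sham on the log2 scale with its 95% interval from limma (x axis) for single genes (y axis). Left, the 5 granule cell genes with 6 arrays (grey circles) and without sham 2 (orange squares), where the differences of 1.33 to 2.72 become -0.16 to 0.27. Right, without sham 2, the same 5 genes (orange squares) and the 16 further granule cell genes (green circles), with those 16 between -0.48 and 0.23.

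A wider list of 22 further granule cell genes was set beside them, of which 16 had a probe and all 16 were tested. None was called in either direction in either comparison, with 6 arrays or without sham 2. Without sham 2, 6 of the 16 were above 0 and 10 below, with a median of -0.10 beside -0.02 for all probes, and 44.9% of all probes were above 0. The gene with the smallest p was Tdo2, which encodes a tryptophan dioxygenase and whose probe was dimmer than that of Prox1 on these 5 arrays. It had -6.15, -6.33 and -6.19 on orchidectomized 1 to 3, against -5.79 and -5.97 on sham 1 and sham 3, which differ by -0.34 (SE 0.14; adjusted p 0.989 in limma). C1ql3, a relative of C1ql2 at the mossy fiber synapse, differed by -0.31 (SE 0.19; adjusted p 0.989 in limma), and its other 2 probes gave -0.22 and -0.28. Scgn, which encodes the calcium sensor secretagogin, differed by -0.36, and Pdzd2, a PDZ domain gene, by 0.23. On orchidectomized 3, Plk5 had -2.30 where the 4 other arrays apart from sham 2 had -0.73 to -0.63, and sham 2 had -2.12.

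On sham 2 the further granule cell genes were not all lower. Of the 16, 9 were more than 1 log2 unit below the median of the other 5 arrays, 2 were more than 1 unit above it and 5 lay within 1 unit, with a median of -2.31. Neurod1, a neuronal differentiation factor, was at -7.88 relative to that median, Synpr, the mossy fiber vesicle protein synaptoporin, -7.57 and not well above background there, and C1ql3 -6.85. Tdo2, Lct, Sema5a, Zbtb20 and Akap7 were within 1 unit, and Ahcyl2 and Pdzd2 were 1.95 and 1.82 above. The Tdo2 probe was dim on all 6 arrays, at -6.79 on sham 2, which left it little room for a drop. The 5 granule cell genes described first were all more than 1 unit below, with a median of -5.28. Choroid plexus genes had a median of 9.25 above the other arrays on sham 2, with 11 of 12 above by over 1 unit. The part of the choroid plexus signal in the granule cell values was not tested.

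The opioid system around Pdyn and Penk was read from 12 further genes, of which 11 were tested, and 0 were called in either direction. Without sham 2, 7 were above 0 and 4 below, with a median of 0.086. Pnoc, the precursor gene of nociceptin, had 0.11, 0.34 and 0.13 on orchidectomized 1 to 3, against 0.59 and 0.43 on sham 1 and sham 3. These groups did not overlap, as for 10% of all probes in that direction, and the difference was -0.31 (SE 0.14, adjusted p 0.989 in limma). Pcsk1, a convertase that cleaves both precursors, differed by -0.45 (SE 0.25). Pam, which amidates peptides, differed by 0.30, and Scg5, a chaperone of the second convertase, by 0.27. For Scg5 every orchidectomized array lay above both sham arrays, as for 6.24% of all probes. Among the receptors, the mu receptor gene Oprm1 differed by 0.13 and the delta receptor gene Oprd1 by 0.045, while the kappa receptor gene Oprk1 was too dim to be tested. The 3 probes of Oprm1 disagreed in sign.

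Of 10 genes of the C1q-like and cerebellin family and its receptors, 9 were tested and 0 were called in either direction. Without sham 2, 3 were above 0 and 6 below, with a median of -0.087. Adgrb3, the adhesion receptor that binds C1q-like proteins, had 0.87, 0.90 and 0.93 on orchidectomized 1 to 3, against 1.13 and 1.09 on sham 1 and sham 3. The groups did not overlap, as for 10% of all probes in that direction, and the difference was -0.21 (SE 0.12, adjusted p 0.989 in limma). Grik2, a kainate receptor subunit gene, differed by 0.13. All 9 were more than 1 log2 unit below the other arrays on sham 2.

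Among 16 other calcium binding protein genes, 0 were called, 12 were above 0 and 4 below without sham 2, and the median was 0.14. Hpcal4, a neuronal calcium sensor, had the smallest p of that list. It had 0.20, 0.22 and 0.34 on orchidectomized 1 to 3, against -0.34 and -0.10 on sham 1 and sham 3. The groups did not overlap, as for 6.24% of all probes in that direction, and differed by 0.47 (SE 0.14, adjusted p 0.989 in limma). Calb2, the calretinin gene, differed by -0.45 (SE 0.43), and its highest value was 0.63 on sham 1 where the orchidectomized arrays and sham 3 had -0.80 to -0.21. On sham 1, genes of the thalamus and habenula averaged -1.56, where the orchidectomized arrays and sham 3 had -2.33 to -2.20, and striatum genes averaged -1.62, where those had -2.37 to -2.25. In the thalamus and habenula list, Prkcd had 0.14 on sham 1, where those arrays had -1.71 to -1.29. Zic1 had -2.25, where they had -4.44 to -3.96. Slc17a6 lay within their range, and the other genes of that list differed less than Prkcd and Zic1. In the striatum list, Isl1 was well above background on sham 1 alone, at -5.84, which raises that list's mean there. Penk and Pdyn, which the striatum also expresses, were within the range of the other arrays on sham 1. The part of thalamus, habenula or striatum tissue in the granule cell values was not tested.

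Desmoplakin itself was not measured here through a named probe, and of 13 genes of its desmosome partners 8 had a probe. Without sham 2, 7 were tested and 0 were called. Pkp2, a plakophilin gene, differed by -0.33 (SE 0.18; adjusted p 0.989 in limma). Pkp3, another plakophilin gene, was well above background on sham 1 and sham 3 and on none of the 3 orchidectomized arrays, so it was tested through the sham arrays alone. Dsg3, a desmoglein gene, was not well above background on orchidectomized 2 and was likewise tested through the sham arrays, so no count of directions or median is given for this list.

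Genes that neurons switch on with activity, a group to which Pdyn and Penk are often counted, gave 0 called of 15 tested in either direction. Without sham 2 their median was -0.12, with 5 above 0 and 10 below. Arc had 2.45, 2.81 and 1.59 on orchidectomized 1 to 3, against 2.45 and 3.37 on sham 1 and sham 3. The groups overlapped, and the difference was -0.63 (SE 0.44; adjusted p 0.989 in limma). Of 6 immature neuron genes tested, 0 were called, 2 were above 0 and 4 below, and the median was -0.011. Dcx, the doublecortin gene of newborn neurons, had the highest difference of that list at 0.27 (SE 0.31), and Calb2, at -0.45, had the lowest.

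Other cell types, with the choroid plexus among them, are given for the same 5 arrays, where 44.9% of all probes were above 0. The median difference was -0.19 for pyramidal neuron genes with 2 of 14 above 0, mossy cell genes -0.067 with 1 of 5 above 0, and GABAergic interneuron genes 0.030 with 7 of 12 above 0. Astrocyte genes had 0.18 with 7 of 8 above 0, microglia genes 0.13 with 8 of 10, endothelial and lymphatic genes -0.02 with 4 of 9, and myelin genes -0.30 with 1 of 10. Choroid plexus genes had 0.63 with 11 of 11 above 0. None of the genes in these lists was called. The granule cell median of -0.03 lay between these values, and the differences between lists were not tested.

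**Figure D4:**
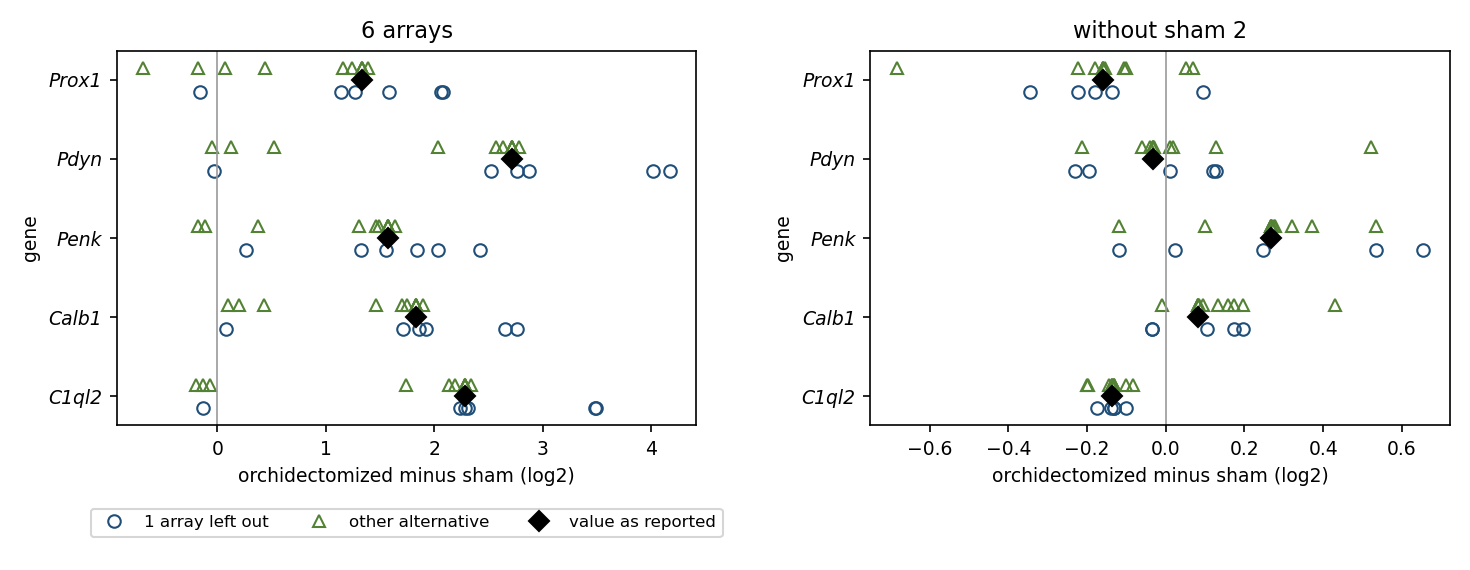
Difference orchidectomized minus sham on the log2 scale (x axis) for each granule cell gene (y axis) as reported (black diamond), with 1 array left out (blue circles) and under the other processing alternatives (green triangles). With 6 arrays (left) the values of Prox1, Pdyn and C1ql2 turn to between -0.16 and -0.034 when sham 2 is left out. Without sham 2 (right) C1ql2 lies between -0.20 and -0.082 in the 16 alternatives. Its groups do not overlap there, so leaving out an array or adding a block could not turn its sign.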

How the data were processed

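Total RNA (200 ng per sample) was amplified and labelled with Cy3, per the labels' protocols. The deposited scanner files give, per the file headers, Agilent Feature Extraction 10.5.1.1 output, and its processed signal (background-subtracted spot intensity) was used. The authors' deposited table holds log2 values that equal this signal's log2 plus a constant per array. Its medians by column were 8.02, 7.94 and 7.91 (orchidectomized 1 to 3) and 7.77, 7.62 and 8.04 (sham 1 to 3), and how it was centred stays unknown.

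Control and outlier-flagged spots were left out, spots of the same probe were averaged as log2, and the 75th percentile of the array was subtracted. RefSeq accessions, without versions, matched the GRCr8 gene table for 18004 of 30367 probes. A probe was tested where every array of either group had it well above background. Tests were two-sided (lmFit, eBayes; limma 3.58.1, R 4.3.3), Benjamini-Hochberg adjusted over all probes, and were checked on simulated data. Of several probes for a gene, the brightest was used.

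The 6 genes and the 17 lists were chosen with earlier results of these data known. Named genes were the 6 members, from each list up to 4 with the smallest p without sham 2 (only some are given in the text), and the 3 nearest profiles per member (left out for Prox1, which was dim on sham 2, and 1 other is not reported here). Plk5, Grik2, Dsg3, Isl1, the opioid receptors and the genes given for their level on sham 2 were named after their values were seen. Slides numbered 4 and scan days 2: orchidectomized 3 shared a slide with sham 1, and sham 1 was scanned on the day of the orchidectomized arrays. Sham 2 and sham 3 were scanned on the other day, on separate slides that held no orchidectomized array. For sham 2 and sham 3, scan day and slide therefore cannot be told apart from the group. Alternatives tried were normexp (offset 50, median spot signals), quantile and median scaling, no filter or a stricter one on dim probes, the authors' table, a trended robust variance, array weights, slide, scan day or replicate blocks, and each array left out. The labels call the samples biological replicates, and their number limits the precision.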

Additional observations from a re-analysis of the deposited data

How the results depend on the processing

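None of the 5 granule cell genes was called under any alternative, with 6 arrays or without sham 2. With 6 arrays the number of probes called was 1 with quantile normalization, 13 with array weights and 0 in every fit that left out 1 array. Without sham 2 it was 2 with quantile normalization, 1 with median scaling, 10 with a scan day block, 18 from the authors' own table and 0 to 251 with a further array left out; the upper end came without sham 3 and 22 without sham 1, where a lone sham array was assumed to vary like the others. With 6 arrays, array weights turned Pdyn to -0.053, Penk to -0.18 and C1ql2 to -0.069, with a weight of 0.028 for sham 2. Slide as a block turned Prox1 to -0.68 and C1ql2 to -0.20, and scan day as a block turned Prox1 to -0.18, Penk to -0.12 and C1ql2 to -0.13; by construction neither block lets sham 2 enter the difference. Leaving out 1 array gave -0.16 to 2.08 for Prox1, -0.034 to 4.17 for Pdyn, 0.27 to 2.42 for Penk, 0.081 to 2.76 for Calb1 and -0.14 to 3.49 for C1ql2. Without sham 2, Prox1 turned to 0.053 with normexp and 0.070 with array weights, and Calb1 to -0.0090 with array weights. Pdyn turned to 0.020 in the authors' table, 0.52 under the slide block and 0.13 under the scan day block, which also turned Penk to -0.12. A further array left out gave -0.35 to 0.094 for Prox1, -0.23 to 0.13 for Pdyn, -0.12 to 0.65 for Penk, -0.036 to 0.20 for Calb1 and -0.17 to -0.10 for C1ql2. The cause of the other turns was not tested. Deviations of same-numbered arrays from their group means correlated at 0.027, -0.023 and -0.018. The sham means included sham 2, which weighs on every sham deviation, so these correlations cannot show whether the numbers pair the arrays. With the replicate block 0 probes were called, and Pdyn without sham 2 turned to 0.010. Prox1 could not be given with probes bright on every array, since it was dim on sham 2.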
